A study of Mus musculus with 8 samples.

Results

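Transcripts of 9 complement genes were followed in F4/80-enriched cells of the mouse inguinal fat pad after a cream with imiquimod had been put on the skin. The genes were chosen by symbol and comprise components (Cfp, Cfb, C2, C4b, C3), an inhibitor (Serping1) and receptors (C3ar1, C5ar1, Vsig4), with the C1q chains left out. All 9 were found among the 56748 rows of the deposited count table, and all 9 passed the filter on low counts that left 16780 genes. Aldara libraries (4) came from wild-type female mice given about 62.5 mg of Aldara cream, which holds 5% imiquimod, a Toll-like receptor 7 agonist, on shaved dorsal skin on 3 consecutive days. Vehicle libraries (4) came from wild-type female mice given an equal volume of a control cream made of Boots Aqueous Cream and 10% Vaseline Lanette Cream. Tissue of both groups was taken 24 h after the last application, and each library pooled F4/80-selected cells of 6 fat pads, about 30000 cells, from preparations with over 90% of cells positive for F4/80 and CD64. The sources used here give neither the age of the mice nor whether the pools of 1 group held different animals, and p-values therefore reflect only how much these pools varied, which may be technical.

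Complement is a cascade of plasma proteases and their substrates that tags particles for uptake and releases small inflammatory peptides. The classical and lectin pathways cleave C4 and C2, the alternative pathway joins factor B to deposited C3, and all of them meet at the cleavage of C3. The peptides C3a and C5a act on G protein-coupled receptors of myeloid cells, while deposited C3 fragments are taken up through receptors such as Vsig4 and the integrin of Itgam and Itgb2. Most plasma complement is made by the liver, but macrophages, epithelia and fibroblasts transcribe several components locally, and properdin, the product of Cfp, comes mainly from leukocytes.

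The libraries held 19537607 to 24340674 counts in Aldara and 21874780 to 34471508 in Vehicle. Adgre1, which encodes F4/80, was present in every library, at 966 ± 476 CPM in Aldara and 82.4 ± 20.4 CPM in Vehicle (SD, n = 4 each). Of 16 general macrophage and leukocyte genes used as a yardstick, 13 rose and 0 fell. Csf1r, Cd68 and Fcgr1 did not pass, with log2 fold changes of 0.99, 0.88 and 0.42 (edgeR, adjusted p = 0.0648, 0.0666 and 0.436). The 16 ran from 0.42 for Fcgr1 to 2.52 for Aif1, so a level relative to their mean depends on this mix. Their summed level ran from 1712 to 4259 CPM in Aldara and from 875 to 1410 CPM in Vehicle, and Aldara exceeded Vehicle in their geometric mean 2.83-fold. More macrophages per library and more RNA of these genes per macrophage cannot be told apart in such bulk data. Epithelial transcripts were abundant in both groups, with 10 markers summing to 10920 to 13959 CPM in Aldara and 10443 to 15162 CPM in Vehicle. Summed fibroblast markers lay at 77.1 to 157 CPM in Aldara and 222 to 589 CPM in Vehicle, with 6 of 8 fallen. CPM here denotes depth-normalised counts as edgeR computes them, scaled with TMM factors.

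Upstream sequence was matched in RefSeq (GRCm38.p6) for 5 of the 9 genes, and 4 of them are shown. These are Cfp, C3ar1 and C5ar1, and C3, whose profile over the libraries lay farther from that of the macrophage genes. C4b and Cfb, whose profiles lay nearer to it than any of these, had no matched sequence. Each line gives the 250 bases before the annotated start, 5′ to 3′ on the gene's strand, and capitals mark matches to one of the motifs searched. The regions are chrX:20931556-20931805, chr6:122856158-122856407, chr7:16259339-16259588 and chr17:57228137-57228386, all on the minus strand.
Cfp: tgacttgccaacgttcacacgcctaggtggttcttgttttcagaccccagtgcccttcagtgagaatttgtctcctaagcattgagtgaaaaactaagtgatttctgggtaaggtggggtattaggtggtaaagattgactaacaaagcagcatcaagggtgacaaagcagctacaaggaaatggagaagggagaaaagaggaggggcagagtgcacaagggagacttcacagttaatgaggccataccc
C3ar1: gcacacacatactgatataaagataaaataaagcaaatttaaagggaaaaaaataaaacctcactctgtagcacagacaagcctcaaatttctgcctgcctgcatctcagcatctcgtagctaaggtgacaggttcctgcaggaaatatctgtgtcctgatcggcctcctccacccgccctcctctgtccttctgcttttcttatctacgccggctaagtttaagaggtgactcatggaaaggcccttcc
C5ar1: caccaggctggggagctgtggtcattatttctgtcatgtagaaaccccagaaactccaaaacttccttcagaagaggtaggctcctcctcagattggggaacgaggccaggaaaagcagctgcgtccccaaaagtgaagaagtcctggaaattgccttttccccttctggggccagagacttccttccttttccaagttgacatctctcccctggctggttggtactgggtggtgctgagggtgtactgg
C3: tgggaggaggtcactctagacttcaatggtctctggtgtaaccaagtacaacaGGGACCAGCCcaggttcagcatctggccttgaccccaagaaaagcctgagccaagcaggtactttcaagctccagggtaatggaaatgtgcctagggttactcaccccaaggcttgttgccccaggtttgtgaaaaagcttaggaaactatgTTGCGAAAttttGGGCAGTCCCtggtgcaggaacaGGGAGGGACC

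The motifs searched on both strands were GGGA, any 4 bases, CC (NF-kB type), TTGCNNAA (C/EBP type), GAGGAA (PU.1 type), TTCNNNGAA (STAT type) and GAAA, any 2 bases, GAAA (IRF type). Upstream of C3, 3 matches to the NF-kB type and 1 to the C/EBP type were found, none overlapping another, and the one at 23 bases before the start lay on the other strand. A match to these types was held by 17.6% and 9.56% of the 32851 upstream windows of the same length. Vsig4 held 2 matches to GAGGAA, which 23.3% of windows hold. The windows of Cfp, C3ar1 and C5ar1 held none of the 5 motifs, which says only that these letters are absent from 250 bases.

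With TMM scaling, 6 of the 9 genes were higher in Aldara and 0 lower at an adjusted p under 0.05 (edgeR quasi-likelihood F test, Benjamini-Hochberg over all tested genes), where 6.98% of all tested genes were higher and 3.86% lower (10.8% in all). With the replicate number as a block 7 of the 9 were higher and 0 lower, where 9.21% of all tested genes were higher and 6.14% lower (15.4% in all). Cfp, C3ar1, Vsig4, C4b, Cfb and C3 rose, although the estimates of C4b and Cfb were below 0 when scaled to the macrophage genes, whereas C5ar1, C2 and Serping1 did not pass. The median log2 fold change of the 9 was 1.41, beside 0.01 over all tested genes. The 4 Aldara libraries lay above the 4 Vehicle libraries for 5 of the 9, against 9.97% of all tested genes, and 0 lay below, against 7.79% (17.8% in either direction). Levels relative to the 16 macrophage genes, which themselves were higher in Aldara in their geometric mean, are described after the single genes.

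**Figure D1:**
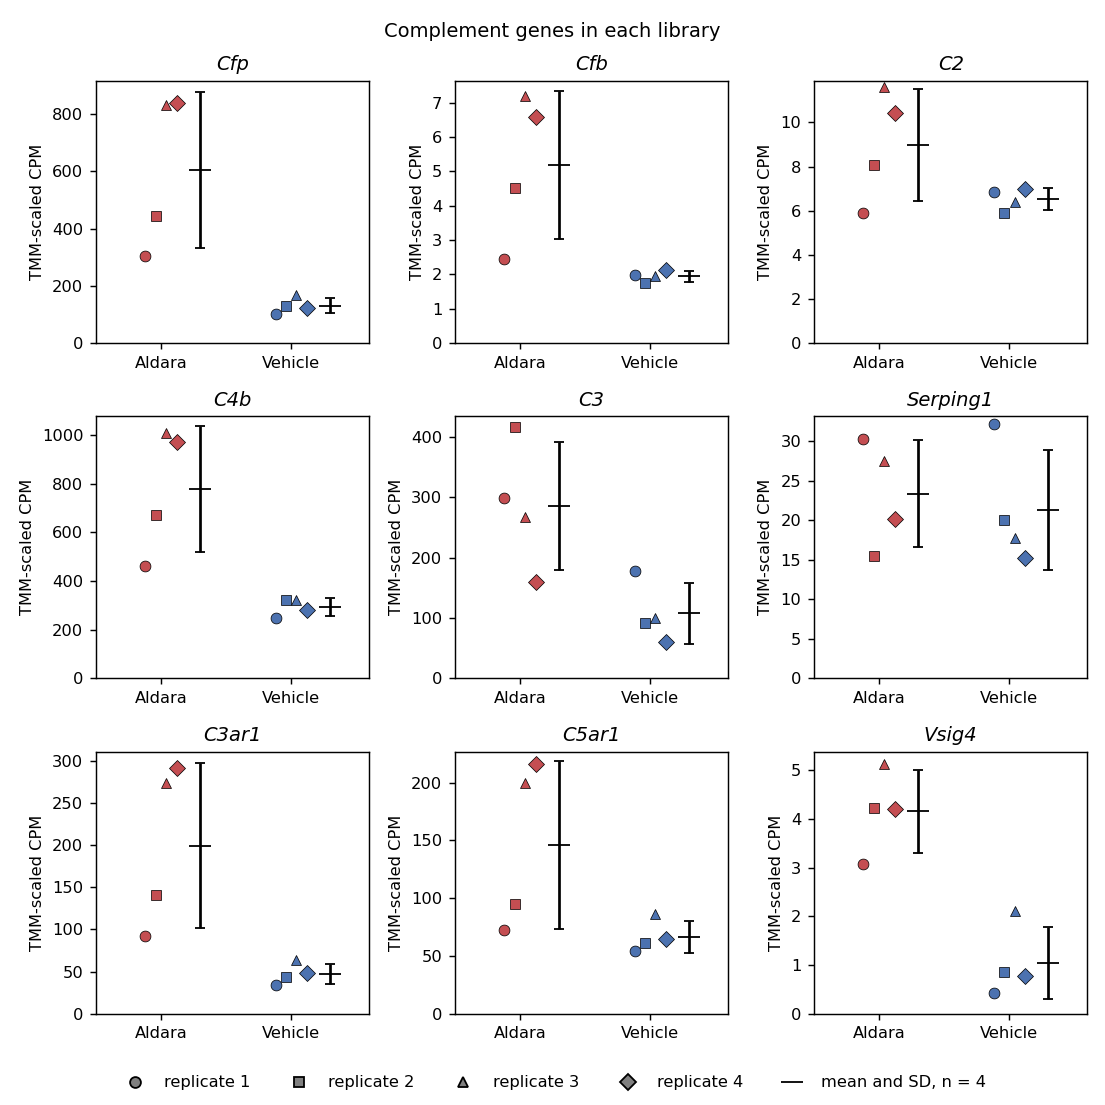
TMM-scaled CPM (y axis, from 0) of the 9 complement genes in each Aldara and Vehicle library, one symbol per replicate number, with bars for mean and SD (n = 4). Aldara libraries lie above all Vehicle libraries for Cfp, Cfb, C4b, C3ar1 and Vsig4, and the groups overlap for C2, C3, Serping1 and C5ar1. In the fit scaled to 16 macrophage genes C4b, Cfb, C2, C5ar1 and Serping1 change direction, C4b not with another list of 7.

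Among genes of the alternative pathway, Cfp had the largest estimated fold change of the 9. Cfp (ENSMUSG00000001128) encodes properdin, which stabilises the alternative convertase. It had 305, 444, 831 and 840 CPM in Aldara replicates 1 to 4, against 103, 129, 166 and 123 CPM in Vehicle replicates 1 to 4. The groups were apart, and the pair of Aldara libraries numbered 3 and 4 lay highest. The means were 605 ± 272 CPM in Aldara and 130 ± 26.5 CPM in Vehicle, with a log2 fold change of 2.22 (SE 0.33, 95% interval 1.48 to 2.95, adjusted p = 0.00518). Cfb (ENSMUSG00000090231), the protease subunit of the alternative C3 convertase, was scarce. It measured 2.43, 4.50, 7.20 and 6.59 CPM in Aldara and 1.97, 1.73, 1.95 and 2.12 CPM in Vehicle. The groups were apart, with Aldara replicate 1 closest to the Vehicle libraries. The log2 fold change of Cfb was 1.41 (SE 0.30, adjusted p = 0.0153), and without Aldara replicate 3 its adjusted p was 0.0512.

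Of the pair of genes that supply the classical and lectin C3 convertase, C4b passed and C2 did not, and the difference between them was not tested. C4b (ENSMUSG00000073418), whose product is cleaved by C1s and the MASP proteases, was among the most abundant of the 9. It had 460, 671, 1006 and 971 CPM in Aldara replicates 1 to 4, against 248, 323, 321 and 280 CPM in Vehicle replicates 1 to 4. Every Aldara library exceeded every Vehicle library, and the log2 fold change was 1.41 (SE 0.23, adjusted p = 0.00623). C4a, a close copy of C4b, took counts equal to 0.319% to 0.64% of those of C4b in Aldara and 0.778% to 0.913% in Vehicle, and reads shared by both copies may be counted for neither. C2 (ENSMUSG00000024371), the protease that joins C4b in that convertase, measured 5.88, 8.08, 11.6 and 10.4 CPM in Aldara and 6.84, 5.89, 6.40 and 6.96 CPM in Vehicle. Aldara replicate 1 fell among the Vehicle libraries. The log2 fold change of C2 was 0.46 (SE 0.20, 95% interval 0.02 to 0.91, adjusted p = 0.174), and without Aldara replicate 1 it was 0.62 (adjusted p = 0.0378).

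Cfb and C2 lie next to each other on chromosome 17, Cfb at 34856374 to 34862518 and C2 at 34862604 to 34898265 (GRCm38, GENCODE M21, both on the minus strand). A read-through gene model, Gm20547, shares 79.5% of the exon bases of Cfb and 42.8% of those of C2. The row of Gm20547 held 0 counts in all 8 libraries. How reads that fit several genes were counted is not given in the sources used here, so the levels of Cfb and C2 can be undercounts, for Cfb over a larger share of its length. The opposite-strand gene Zbtb12 shares a further 4.16% of the exon bases of C2, and the library kit does not mark the strand. Within libraries the ratio of Cfb to C2 counts was 0.413, 0.557, 0.621 and 0.633 in Aldara, against 0.288, 0.295, 0.304 and 0.304 in Vehicle. This ratio was 0.88 higher on the log2 scale in Aldara (two-sided exact permutation of 4 and 4 libraries, p = 0.0286, the smallest this design can give, and 0.0286 adjusted over 3 ratios).

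C3 (ENSMUSG00000024164) is the substrate on which all pathways meet. Its 4 Aldara libraries had 299, 416, 268 and 159 CPM, against 178, 92.2, 100.1 and 60.2 CPM in Vehicle. The groups overlapped through Vehicle replicate 1, which lay above Aldara replicate 4. Unlike Cfp, C4b and C3ar1, C3 was lowest in replicate 4 of each group. The log2 fold change was 1.41 (SE 0.36, 95% interval 0.60 to 2.22, adjusted p = 0.0375). This call did not hold without Aldara replicate 1, 2 or 3 or without Vehicle replicate 2, 3 or 4 (adjusted p = 0.0742 to 0.0974), nor without the low-count filter (adjusted p = 0.154). Epithelial cells, adipocytes and fibroblasts are known to transcribe C3. Of the 10 epithelial markers 0 passed, or, with the replicate block, 1 higher (Cldn4) and 1 lower (Krt7). In both fits 6 of 8 fibroblast markers fell, and of 6 adipocyte markers Adipoq and Cidec rose, with a summed level of 17.8 to 25.6 CPM in Aldara and 12.3 to 16.7 CPM in Vehicle. Their part in the change of C3 was not tested.

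Serping1 (ENSMUSG00000023224) encodes the C1 inhibitor, which inactivates C1r, C1s and the MASP proteases. It showed 30.3, 15.5, 27.5 and 20.2 CPM in Aldara and 32.2, 20.0, 17.7 and 15.2 CPM in Vehicle. The groups overlapped over most of their range. The difference was 0.14 on the log2 scale with an SE of 0.27 (adjusted p = 0.804), and its 95% interval from −0.47 to 0.75 held changes in either direction. Without Aldara replicate 1 the estimate was −0.011. The ratio of C3 to Serping1 counts was 9.86, 26.9, 9.75 and 7.88 in Aldara, against 5.53, 4.60, 5.65 and 3.97 in Vehicle. Every Aldara ratio was above every Vehicle ratio. The gap was 1.29 on the log2 scale (two-sided exact permutation, p = 0.0286, also 0.0286 adjusted over the 3 ratios), and 0.90 without Aldara replicate 2. Whether both transcripts came from the same cells was not tested.

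The receptors of the 2 anaphylatoxins did not move alike. C3ar1 (ENSMUSG00000040552), the receptor of C3a, had 92.5, 141, 273 and 291 CPM in Aldara replicates 1 to 4, against 34.2, 43.9, 63.1 and 48.4 CPM in Vehicle replicates 1 to 4. No Vehicle library reached the lowest Aldara library. The log2 fold change was 2.07 (SE 0.36, 95% interval 1.25 to 2.89, adjusted p = 0.00896, but 0.0568 without the low-count filter). C5ar1 (ENSMUSG00000049130), the main signalling receptor of C5a, had 72.3, 94.9, 199 and 216 CPM in Aldara, against 54.1, 61.6, 86.0 and 64.5 CPM in Vehicle. Aldara replicate 1 lay below Vehicle replicate 3. The log2 fold change of C5ar1 was 1.13 (SE 0.34, 95% interval 0.36 to 1.90) and did not pass (adjusted p = 0.0657). With the replicate number as a block C5ar1 passed (adjusted p = 0.0238), as it did with DESeq2 (0.00402) and without Aldara replicate 1 (0.0159).

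The ratio of C3ar1 to C5ar1 counts was higher in Aldara. It was 1.28, 1.48, 1.37 and 1.35 in Aldara, against 0.632, 0.713, 0.734 and 0.75 in Vehicle. C3ar1 has the longer exons, and per exon length the ratio was 0.764, 0.885, 0.818 and 0.804 in Aldara, against 0.377, 0.426, 0.438 and 0.447 in Vehicle. C5ar1 was thus the higher of both genes per length in all 8 libraries. The difference was 0.95 on the log2 scale, a 1.94-fold change of the ratio (two-sided exact permutation, p = 0.0286, also 0.0286 adjusted over the 3 ratios). It exceeded the SD between libraries of 0.09 in Aldara and 0.11 in Vehicle. A ratio within a library does not depend on the scaling between libraries.

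**Figure D2:**
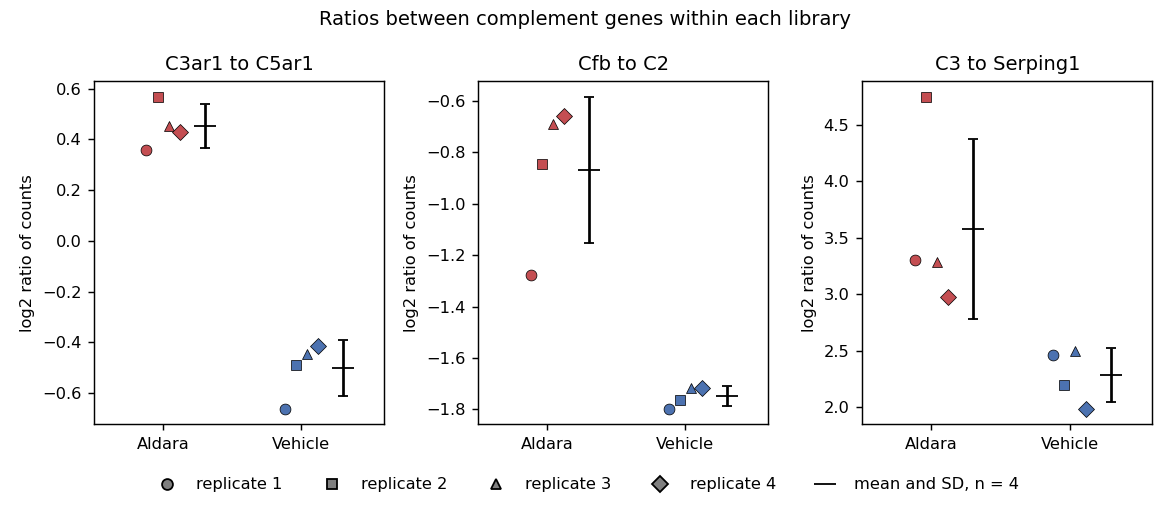
Log2 ratio of counts (y axis) of C3ar1 to C5ar1, Cfb to C2 and C3 to Serping1 in each Aldara and Vehicle library, with mean and SD (n = 4). All 4 Aldara libraries lie above all 4 Vehicle libraries in each panel. Counts are not corrected for exon length, so where a ratio lies relative to 0 does not say which gene has the higher level.

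Vsig4 (ENSMUSG00000044206), a receptor of tissue macrophages for C3b and iC3b that also inhibits the alternative convertase, was close to the lower end of detection. It had 3.07, 4.22, 5.14 and 4.20 CPM in Aldara and 0.421, 0.867, 2.12 and 0.77 CPM in Vehicle. The Vehicle values rested on 9, 19, 75 and 24 counts, and Vehicle replicate 3 was the highest of them. The log2 fold change was 1.94 (SE 0.40, 95% interval 1.06 to 2.83, adjusted p = 0.013). The order of the 9 genes was also compared per kilobase of exon. Cfp led at 349 CPM per kb in Aldara and 75.0 CPM per kb in Vehicle, followed by C4b at 136 in Aldara, where their ranges overlapped, and 51.4 in Vehicle, where they did not. C5ar1, C3 and C3ar1 overlapped in range at 56.7, 55.5 and 46.3 CPM per kb in Aldara. In Vehicle C5ar1 (25.9) overlapped C3 (20.9), C3 overlapped C3ar1 (11.01), and C3ar1 overlapped Serping1 (9.15). Serping1 (10.0), Vsig4 (2.80), C2 (2.32) and Cfb (1.83) were the lowest in Aldara, where the last 3 overlapped as neighbours, and in Vehicle C2 (1.68) lay above Vsig4 (0.703) and Cfb (0.687).

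Levels of the 9 genes were also compared relative to the 16 macrophage genes of the same library. In the geometric mean of these 16 genes Aldara exceeded Vehicle 2.83-fold. A gene with a smaller TMM-scaled rise therefore comes out lower in Aldara on this scale. Per library, the log2 difference between a gene and the geometric mean of these 16 genes was taken. For Cfp it was 1.94, 1.95, 2.00 and 2.10 in Aldara, against 1.41, 1.37, 1.42 and 1.33 in Vehicle. The gap of 0.61 between the groups exceeded the SD of 0.08 in Aldara and 0.04 in Vehicle. For C3ar1 the values were 0.21, 0.29, 0.39 and 0.57 in Aldara and −0.17, −0.19, 0.03 and −0.01 in Vehicle, a gap of 0.46. Relative to the geometric mean of the 16 genes, Cfp and C3ar1 were therefore higher in every Aldara library than in any Vehicle library, where 0.673% of all tested genes lay apart in this direction (two-sided exact permutation, p = 0.0286 for each, the smallest possible). The permutation p-values on this scale were not adjusted over the 9 genes. In the edgeR fit scaled to the 16 genes neither passed (adjusted p = 0.14 for Cfp and 0.261 for C3ar1). With the replicate block in that fit Cfp passed (0.0129) and C3ar1 did not (0.0756). Of the 16 genes themselves, 3 had a larger log2 fold change than Cfp and 4 a larger one than C3ar1.

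C5ar1 and C2 moved the other way on this scale. The log2 difference of C5ar1 was −0.14, −0.28, −0.06 and 0.14 in Aldara, against 0.49, 0.30, 0.47 and 0.40 in Vehicle, a gap of −0.50 (exact permutation p = 0.0286). C2 had a gap of −1.08 (exact permutation p = 0.0286). On this scale 73.4% of all tested genes lay apart in this direction, so the 2 of 9 are no result about these genes. With a list of 7 defining macrophage genes, Adgre1, Csf1r and Cd68 among them, as the yardstick, the gap was 0.82 for Cfp and 0.66 for C3ar1, both still apart, and −0.30 for C5ar1, where the groups then overlapped (exact permutation p = 0.0857).

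C4b, Cfb and C3 had gaps near 0. They were −0.15, −0.20 and −0.06, with overlapping groups (exact permutation p = 0.229, 0.257 and 0.971). The gap of Vsig4 was 0.72 (p = 0.143) and that of Serping1 −1.35 (p = 0.0857), both exact permutation tests with overlapping groups. Between libraries of the same replicate number, C4b was lower in Aldara in 4 of 4 pairs (−0.16, −0.14, −0.10 and −0.21), and so was Serping1 (−1.14, −1.57, −1.11 and −1.59). An exact sign-flip test gave p = 0.125 for each, the smallest that 4 pairs allow. With the list of 7 genes the unpaired gaps were 0.05 for C4b, 0.0041 for Cfb and 0.14 for C3. C4b stayed within a narrow band, from 2.28 to 2.55 in Aldara and 2.38 to 2.69 in Vehicle. C3 ranged from −0.30 to 1.90 in Aldara and 0.30 to 2.21 in Vehicle, with the lowest values in replicate 4 of both groups. The SD between libraries was 1.10 in Aldara and 0.83 in Vehicle for C3, and 0.14 in Aldara and 0.15 in Vehicle for C4b. In the edgeR fit scaled to these genes, adjusted over all genes, 0 of the 9 were higher and C2 (−1.09, adjusted p = 0.0149) and Serping1 (−1.29, adjusted p = 0.0027) were lower, where 0.417% of all tested genes were higher and 89% lower (89.4% in all). Both calls were lost without Vehicle replicate 1 (adjusted p = 0.0626 for C2 and 0.0773 for Serping1). With the replicate block Cfp passed in that fit (log2 fold change 0.61, adjusted p = 0.0129), and otherwise it did not (adjusted p = 0.14). With that block 1 of the 9 was higher and 2 lower, where 0.584% of all tested genes were higher and 93.3% lower (93.9% in all).

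**Figure D3:**
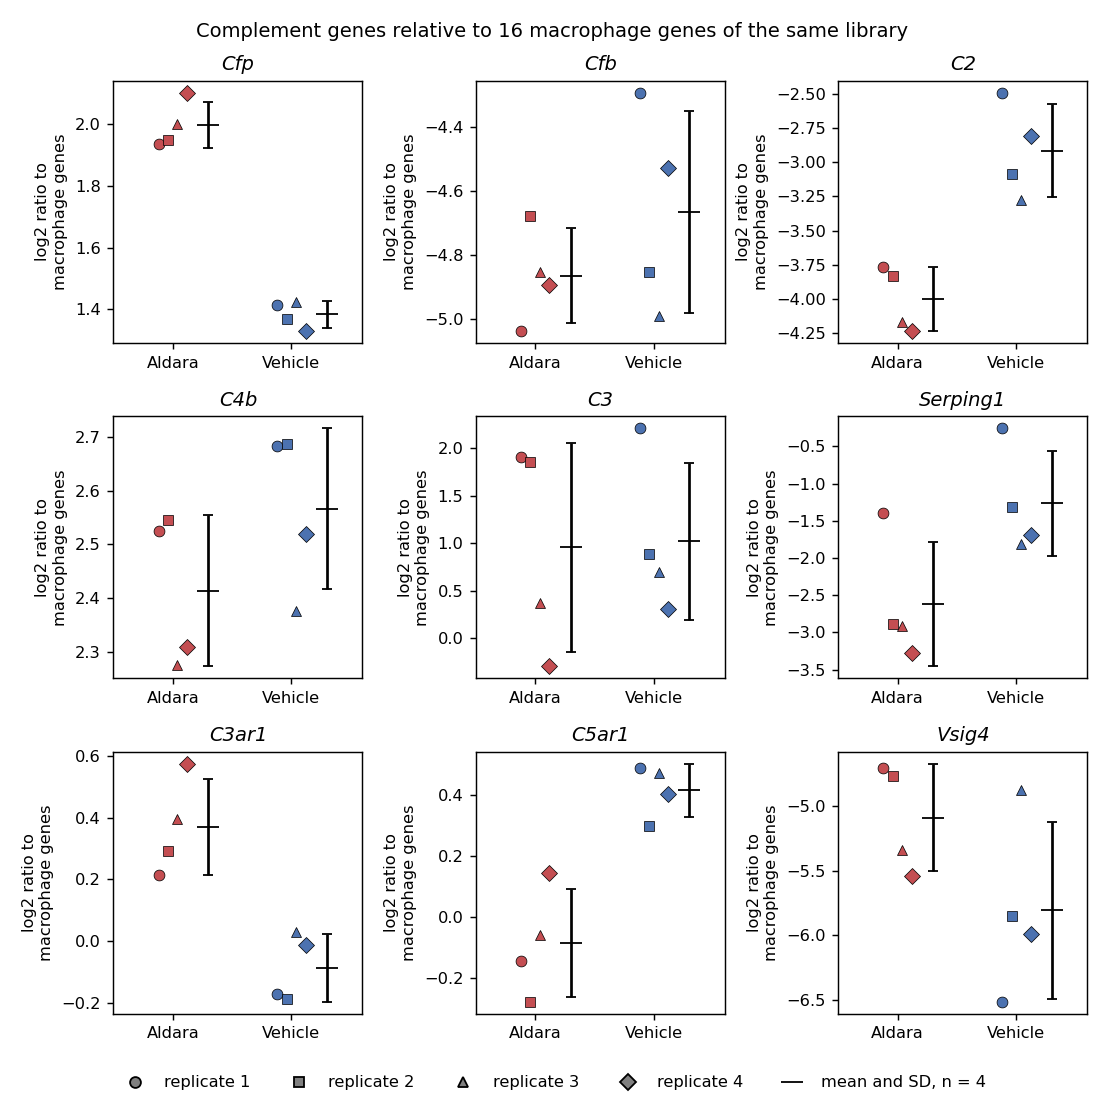
Log2 ratio (y axis) of each complement gene to the geometric mean of 16 macrophage genes in the same library, for Aldara and Vehicle, with mean and SD (n = 4). Aldara lies above Vehicle without overlap for Cfp and C3ar1, below it for C5ar1 and C2, and overlaps it for Cfb, C4b, C3, Serping1 and Vsig4.

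Profiles over the 8 libraries were compared between genes. Likeness was measured as the root-mean-square difference between log2 CPM profiles, each centred on its own mean. The difference between Aldara and Vehicle stays in these profiles. Closeness therefore partly reflects a similar fold change and does not by itself show variation together within a group. Cfp and C3ar1 were the most alike pair among the 9 (0.12). The distance to the mean profile of the 16 macrophage genes was 0.15 for C4b, 0.26 for C3ar1, 0.28 for C5ar1, 0.31 for Cfp and 0.84 for C3. Nearest to Cfp among all tested genes were Pirb (0.07), an inhibitory receptor of myeloid cells, B3galnt1 (0.09) and Arhgap4 (0.10). Nearest to C3ar1 were Ly86 (0.09), the partner of the receptor RP105, Syk (0.11), a kinase of immune receptors, and Cd200r1 (0.12). C4b lay nearest to Stk17b (0.08), Lcp1 (0.09), a leukocyte actin-bundling protein that is one of the 16 yardstick genes, and Ikbke (0.10). The genes nearest to C5ar1 were Slc28a2 (0.10), Epsti1 (0.13) and Metrnl (0.13), and those nearest to Cfb were Cela1 (0.13), Cmtm3 (0.15) and Fmnl1 (0.15). C2 was nearest to Slc15a4 (0.09), Cyfip1 (0.11) and Ripk2 (0.12). The genes nearest to C3 were farther off, with Slc13a2 at 0.37, Zbtb7c at 0.41 and Apol7a at 0.42. Vsig4 was nearest to Evi2 (0.23), Clec12a (0.35) and Ly9 (0.37), and Serping1 to Zfp449 (0.15), Slpi (0.19) and Gja4 (0.20).

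Of 46 other complement genes, 28 could be tested, 11 rose and 0 fell, with a median log2 fold change of 0.48, where 6.98% of all tested genes rose and 3.86% fell. With the replicate block 14 rose, where 9.21% of all tested genes did. Of those that rose, C1ra, C1s1, Clu, Cd55 and C5ar2 had estimates below 0 when scaled to the macrophage genes, where 2 of the 28 were higher and 15 lower, against 0.417% and 89% of all tested genes. Among initiators the C1q chains C1qa, C1qb and C1qc, which recognise antibody and dying cells, rose, with log2 fold changes of 1.58 for C1qa (adjusted p = 0.0201), 1.70 for C1qb (0.0153) and 1.74 for C1qc (0.0188). The C1 proteases C1ra and C1s1 rose by 0.60 (SE 0.12, adjusted p = 0.0115) and 0.86 (SE 0.19, adjusted p = 0.0213). Fcna, a ficolin of the lectin pathway found on mouse macrophages, measured 127 ± 49.8 CPM in Aldara and 61.6 ± 18.7 CPM in Vehicle and passed with the replicate block (adjusted p = 0.0574, and 0.00475 with the block). Cfd, factor D, which cleaves factor B and is secreted by adipocytes, had 21.4, 8.48, 9.05 and 13.7 CPM in Aldara and 2.90, 3.10, 2.93 and 3.21 CPM in Vehicle, a log2 fold change of 2.11 (SE 0.28, adjusted p = 0.00248). Aldara replicate 1 was its highest library, unlike for the macrophage genes. Of 6 adipocyte markers 2 rose, Adipoq and Cidec, and 0 fell, with a median log2 fold change of 0.60 over the 6. Their summed level was 17.8 to 25.6 CPM in Aldara and 12.3 to 16.7 CPM in Vehicle. The part of adipocyte RNA in the change of Cfd was not tested.

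The integrin chains of the receptor for deposited C3 had the largest estimated fold changes of the complement genes tested. Itgam and Itgb2, the chains of complement receptor 3, rose, by a log2 fold change of 2.99 for Itgam (adjusted p = 0.0033) and 2.84 for Itgb2 (adjusted p = 0.00313), and both were also higher relative to the macrophage genes (1.36 and 1.19, adjusted p = 0.00169 and 0.00503 in the edgeR fit scaled to them). Itgax, the chain of complement receptor 4, averaged 6.65 ± 1.59 CPM in Aldara and 3.85 ± 1.36 CPM in Vehicle (adjusted p = 0.0701). C5ar2, the second receptor of C5a, rose by 1.27 (SE 0.32, adjusted p = 0.0299). Among regulators Cd55, which speeds the decay of convertases, rose to 107 ± 27.5 CPM in Aldara, against 52.2 ± 5.18 CPM in Vehicle (adjusted p = 0.0054). Clu, clusterin, an inhibitor of the terminal complex also made by epithelia, was 1255 ± 125 CPM in Aldara and 885 ± 122 CPM in Vehicle (adjusted p = 0.0268).

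Of the terminal pathway 0 of 3 tested genes rose or fell by edgeR, with 1 at an unadjusted p under 0.05. C6 measured 23.0 ± 11.2 CPM in Aldara and 13.1 ± 4.31 CPM in Vehicle (adjusted p = 0.184, and 0.0383 with the replicate block). Mbl1, Mbl2, Fcnb, Colec10, C8a, C8b and C4bp were at 0 counts in all 8 libraries. The other 11 untested genes had at most 39 counts over the 4 libraries of a group. Several calls near the threshold were lost when 1 library was left out, for most of them any of several libraries. Those on C1qa and C1qc were lost without Aldara replicate 3 or 4 or Vehicle replicate 1, 2 or 4 (adjusted p = 0.0502 to 0.073), and that on C1qb without Aldara replicate 4 (0.0589). The call on C1s1 was lost without Aldara replicate 2 or 3 or Vehicle replicate 2, 3 or 4 (0.0572 to 0.0639). The call on Clu was lost without Aldara replicate 1 or 3 or Vehicle replicate 1, 2 or 3 (0.052 to 0.0792). That on C5ar2 was lost without Aldara replicate 3 or 4 or Vehicle replicate 1, 2 or 4 (0.077 to 0.0904). The C1q chains did not pass without the low-count filter (adjusted p = 0.0843 to 0.105). Neutrophil transcripts bear on Cfp, C5ar1 and Itgam, which neutrophils also express. Ly6g was at 0 counts and S100a8, S100a9, Cxcr2 and Retnlg averaged at most 0.507 CPM in either group. Csf3r was higher, at 37.6 ± 16.8 CPM in Aldara and 8.72 ± 2.75 CPM in Vehicle, and the part of such cells in these results was not tested.

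**Figure D4:**
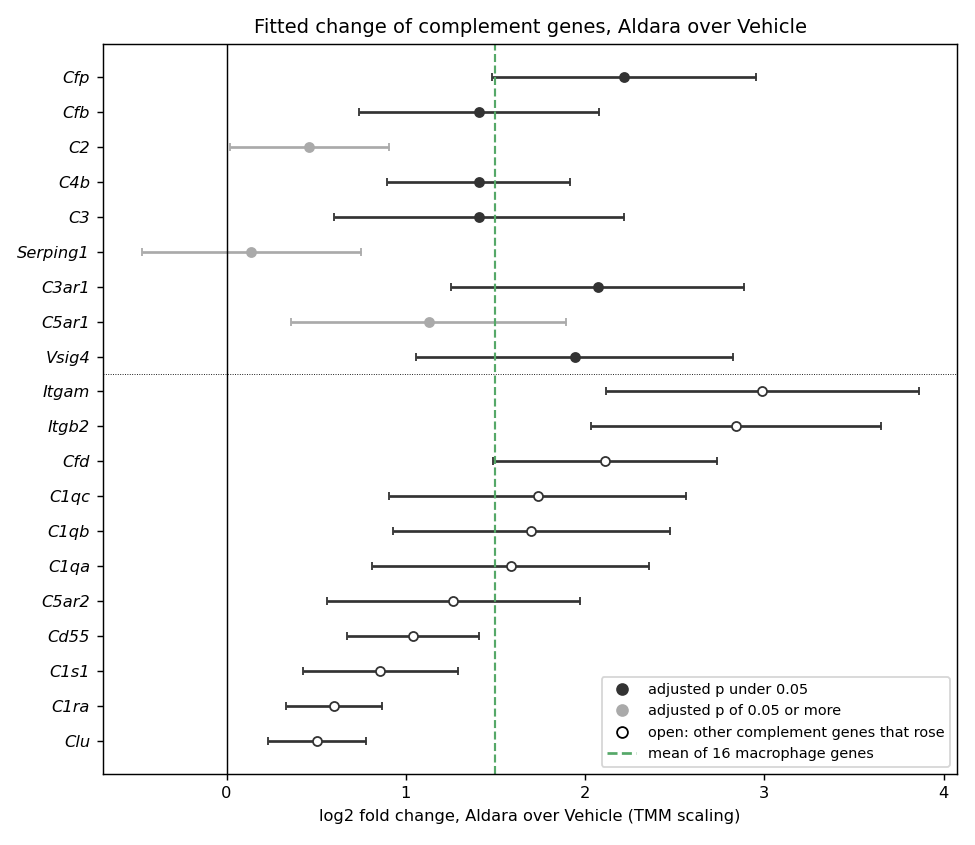
Log2 fold change of Aldara over Vehicle (x axis, TMM scaling) with 95% interval for the 9 complement genes (filled, above the dotted line) and the 11 other complement genes that rose (open), dark where the adjusted p is under 0.05. The dashed line is the mean change of 16 macrophage genes (2.83-fold, drawn on the log2 axis), and C4b, Cfb, C3, C5ar1, C2 and Serping1 lie left of it. In the fit scaled to those genes the estimate of C3 is 0.02 and the other estimates of these 6 genes are below 0.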

How the data were processed

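RNA was amplified with a SMARTer ultra-low-input kit, per the labels' protocols. The deposited table holds raw counts of reads per gene, for which HISAT2 2.0.5, featureCounts 1.5.0-p3 and DESeq2 with mm10 are named, per the submitters' processing notes. How multi-mapping or overlapping reads were counted is unknown here. GENCODE M21 named 52073 of the 56748 identifiers (91.8%). Some identifiers are newer than that annotation, so its exon lengths and coordinates, and RefSeq's, need not match those used for counting.

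Counts were tested with edgeR 4.0.16 in R 4.3.3 (filterByExpr, TMM factors of 0.957 to 1.035, robust quasi-likelihood F test, threshold 0.05), and the procedure was tested on simulated data. The SE was derived from the F statistic and 95% intervals from it. DESeq2 1.42.0, RLE and upper-quartile factors, no low-count filter, the replicate block, each library left out, and scaling to the 16 macrophage genes (Csf1r, Cd68, Fcgr1, Fcgr3, Ctss, Tyrobp, Fcer1g, Laptm5, Aif1, Cyba, Cybb, Cd53, Coro1a, Ptprc, Spi1 and Lcp1) were alternatives. The per-library differences to these genes, their paired form and the ratio per exon length were chosen after seeing the data. Same-numbered libraries of the groups deviated together, though weakly (r = 0.109 to 0.212 across genes, n = 4 pairs). The replicate number was therefore used as a block in an alternative fit, and blocked values are given where they change a call. The main fit, the fits without 1 library and the permutation tests on ratios and relative levels were unpaired. No pair of libraries agreed within sampling noise.

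The 9 genes and all lists were chosen with earlier results of these data known. All 9 genes are named, as are other complement genes that passed or that changed call (values of some genes are not reported here), and for each of the 9 the 3 tested genes nearest in profile, predicted models left out. At most 0.0532 CPM corresponds to 1 count.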

Additional observations from a re-analysis of the deposited data

How the results depend on the processing

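All comparisons rest on 4 pools a group, and leaving out 1 library often changes a call near the threshold. The number of complement genes higher in Aldara, 6 of 9, ran from 4 to 7 under DESeq2, RLE and upper-quartile factors, no low-count filter, the replicate block and each left-out library. Scaled to the macrophage genes it was 0 higher and 2 lower, and the other complement genes then had 2 higher and 15 lower instead of 11 and 0. Over all genes, 1171 were higher and 647 lower with TMM (64.4% higher). With macrophage scaling there were 70 and 14938, since it moves the median of all genes by −1.39. There were 1540 higher and 1198 lower with DESeq2, 979 (49.7%) and 990 with upper-quartile factors, and 1546 and 1030 with the replicate block.

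Without 1 library the genes higher numbered 629 to 1405 and those lower 323 to 664, and the other complement genes higher 6 to 11. With macrophage scaling 0 of the 9 were higher and 0 to 2 lower without 1 library, and 1 was higher with the replicate block. Scaled in this way C2 (−1.09), C4b (−0.15), Cfb (−0.21), C5ar1 (−0.49), Serping1 (−1.29), C1ra (−0.76), C1s1 (−0.53), Fcna (−0.49), C6 (−0.74), Clu (−0.86), Cd55 (−0.49), C5ar2 (−0.30) and Itgax (−0.58) changed direction. Serping1 with TMM ran from −0.011 to 0.41 without 1 library. C3 under macrophage scaling was 0.02, with −0.073 under the replicate block, −0.29 to 0.60 without 1 library, −0.064 as the per-library difference and −0.14 to −0.0015 with 1 yardstick gene left out, and 0.17 with the 7 defining macrophage genes as yardstick, where C4b was 0.041 and Cfb −0.010. The cause was not tested.

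Without 1 library the log2 ratio differences ran from 0.90 to 0.99 for C3ar1 to C5ar1, 0.81 to 1.02 for Cfb to C2 and 0.90 to 1.49 for C3 to Serping1. With libraries paired by replicate number they were 0.95, 0.88 and 1.29, but 4 pairs allow no exact p below 0.125. The replicate block also changed the calls on C5ar1, Fcna, C6 and, under macrophage scaling, Cfp.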
